A study of Homo sapiens with 24 samples.

Results

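U937 cells treated for 3 days with UNC0638 at 4 µM were compared with U937 cells treated at 2 µM, to see which genes keep moving as the dose is doubled and which do not. The comparison set the 3 libraries that the labels assign to 4 µM against the 3 assigned to 2 µM, of 24 libraries in the series. All 24 entered the filter, the scaling and the estimate of spread behind the p-values. They include libraries with SUV39H1 hairpin 2 or 4, selected for 3 days in puromycin, that are not otherwise compared here. U937 is a human myelomonocytic line, and UNC0638 inhibits the catalytic activity of G9a (the product of EHMT2) and of its partner GLP (the product of EHMT1). The 3 DMSO libraries gave the level without inhibitor, and the labels give no harvest time for them. The 9 libraries with a scrambled hairpin or with G9a hairpin 2 or 3, the G9a hairpins brought in by lentivirus and selected for 3 days in puromycin, gave a separate readout. All groups are the same cell line, and the labels record no genotype change, second agent or clone for the dose groups. Nothing in the labels ties replicates to separate cultures, so p-values measure only the spread between these libraries, which may be technical. The dose libraries held 38779629 to 50904514 gene counts each and the DMSO libraries 31851239 to 47806304. Of 55773 gene names 20147 had enough counts to be tested. The labelled cell type was checked against 11 myelomonocytic markers, of which 10 were above 1 CPM (counts per 1000000 gene counts, scaled between libraries) and MPO was not. The lymphoid markers CD3D, CD3E, CD2 and MS4A1 were near 0 while CD79A was expressed, and the erythroid marker HBB and the platelet marker PF4 were at 0 in all 6 dose libraries.

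G9a and GLP place the dimethyl mark on lysine 9 of histone H3, a mark of silent chromatin, and the series concerns the interferon pathway. Interferon binds receptors that activate transcription factors, among them STAT2 and IRF9, in a complex that binds interferon-stimulated response elements in the promoters of genes whose products block virus replication. MHC class II genes, which present antigen on monocytes, macrophages and other cells, are instead driven mainly by the coactivator CIITA acting at a conserved promoter module that includes a CCAAT-type box, read as GATTGG on the other strand.

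Promoter sequence is shown for these 2 groups because they differed in dose class. Both dose steps rose in 49 of 78 tested interferon-stimulated genes and in 1 of 12 tested class II genes. Levelling after the first step was met by 6 of the 12 and by 0 of the 78. The capitals mark matches to a pair of GAAA separated by any 2 bases, an interferon-response-like motif, in 4 genes that rose at both dose steps, and matches to GATTGG in 2 class II genes that rose to 2 µM and then levelled. All are from RefSeq promoters (build GRCh38.p14, 250 bases before to 50 after the gene start), upstream of the start and written 5′ to 3′ on the gene's strand. The genes are examples picked from these classes. The GAAA pair was also in IFITM3 and TNFSF10, which passed at neither step, and GATTGG in HLA-DMB, which was undecided.
ISG15, chr1:1013354-1013423, plus strand: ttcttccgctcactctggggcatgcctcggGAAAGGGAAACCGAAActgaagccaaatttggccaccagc
IFI6, chr1:27672309-27672378, minus strand: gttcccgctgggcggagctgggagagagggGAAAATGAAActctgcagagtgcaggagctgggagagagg
OAS3, chr12:112938301-112938370, plus strand: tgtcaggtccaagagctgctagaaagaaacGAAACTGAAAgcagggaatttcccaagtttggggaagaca
BST2, chr19:17405721-17405790, minus strand: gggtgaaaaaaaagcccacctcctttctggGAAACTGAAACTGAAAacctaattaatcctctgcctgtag
HLA-DRB1, chr6:32589860-32589925, minus strand: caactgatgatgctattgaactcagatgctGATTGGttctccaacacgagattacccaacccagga
HLA-DMA, chr6:32953142-32953207, minus strand: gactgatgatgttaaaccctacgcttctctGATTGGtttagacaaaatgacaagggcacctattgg

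Both motifs were searched on both strands in the promoters of the 7377 tested genes whose symbol had exactly 1 entry in the RefSeq table, and overlapping matches were joined. The GAAA pair was found in 3.09% of these and in 3.81% of the 22114 promoters of all such genes in the table. It was in 30 of 43 promoters of interferon-stimulated genes (69.8%). Among genes that rose at both steps it was in 24 of 78 (30.8%), made up of 19 of the 28 with a promoter here that are on the interferon list and 5 of the other 50 (67.9% and 10.0%). Within the interferon list the share was thus similar in members that kept rising (67.9%) and over all members (69.8%). Among genes that rose at the first step and then levelled it was in 0 of 49, and among class II genes in 0 of 8. GATTGG was in 5 of 8 class II promoters (62.5%), against 19.8% of the tested genes and 15.6% of the 22114 promoters. A match describes the letters only and is not evidence of binding.

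Between 2 and 4 µM 371 genes (1.84% of those tested) passed the test, 280 higher (1.39%) and 91 lower (0.452%) at 4 µM (quasi-likelihood test in edgeR, p adjusted by Benjamini-Hochberg, under 0.05). The changes were small. The median log2 change was 0.33 among the higher and -0.25 among the lower genes, 58 and 4 of them differed at least 1.5-fold, and 16 and 1 at least 2-fold. All 3 libraries at 4 µM lay beyond all 3 at 2 µM for 279 of the 280 higher and all 91 lower genes, a separation that 8.26% (above) and 8.12% (below) of all tested genes showed. Separate dose groups reported below for called genes therefore add no support of their own. Nearly all calls showed them, and the rule for the largest named genes required them. The median change of all tested genes was 0.00. The first step, from DMSO to 2 µM, called more genes, 771 higher (3.83%) and 673 lower (3.34%), and 4 µM against DMSO called 4012 (19.9%). These comparisons share the 2 µM or the DMSO libraries. The counts moved with single libraries: without 2 µM replicate 2 there were 182 higher and 33 lower genes, and the lower genes numbered 47 and 42 without 2 µM replicates 1 and 3 and 49 and 36 without 4 µM replicates 1 and 2. All 371 genes kept their direction in each of these fits. The nearest genes on either side of the threshold were CSTB (0.18, adjusted p = 0.0498, edgeR) and CHMP5 (0.28, adjusted p = 0.0504).

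Genes were classed by their calls at the 2 steps. A gene kept moving where both steps passed in the same direction, which held for 155 higher (0.769%) and 44 lower (0.218%) genes. It levelled where only the first step passed and the second step was smaller than the first by its own test, which held for 115 higher (0.571%) and 51 lower (0.253%) genes. Whether a second step passes depends on level, and the classes differed in it. The median was 5.02 CPM for levelled and 35.6 CPM for kept-moving higher genes, and 12.3 and 62.0 CPM for the lower ones. Levelled genes include some, such as ZNF761, whose second step went back without passing. A second-step-only gene passed only between 2 and 4 µM (119 higher, 0.591%, and 45 lower, 0.223%), and 8 genes turned back (2 rose first, 0.00993%, and 6 fell first, 0.0298%). The first step alone passed for 499 higher (2.48%) and 572 lower (2.84%) genes whose steps did not differ by the test, so that whether they levelled is undecided. Class sizes are descriptive because the steps share the 2 µM libraries. The lower classes moved most with single libraries. When each of the 6 dose libraries was left out in turn, genes that kept falling numbered 21 to 29 and second-step-only lower genes 12 to 29, and without DMSO replicate 1 the former numbered 67. Levelled lower genes numbered 29, 21 and 27 without 2 µM replicates 1, 2 and 3. Second-step-only higher genes numbered 77 and 75 without 2 µM replicates 1 and 2 and 58 and 62 without 4 µM replicates 2 and 3. The undecided higher genes numbered 781 and 325 without DMSO replicates 1 and 3, and the undecided lower genes 987 and 331, or 363 without 2 µM replicate 1.

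**Figure D1:**
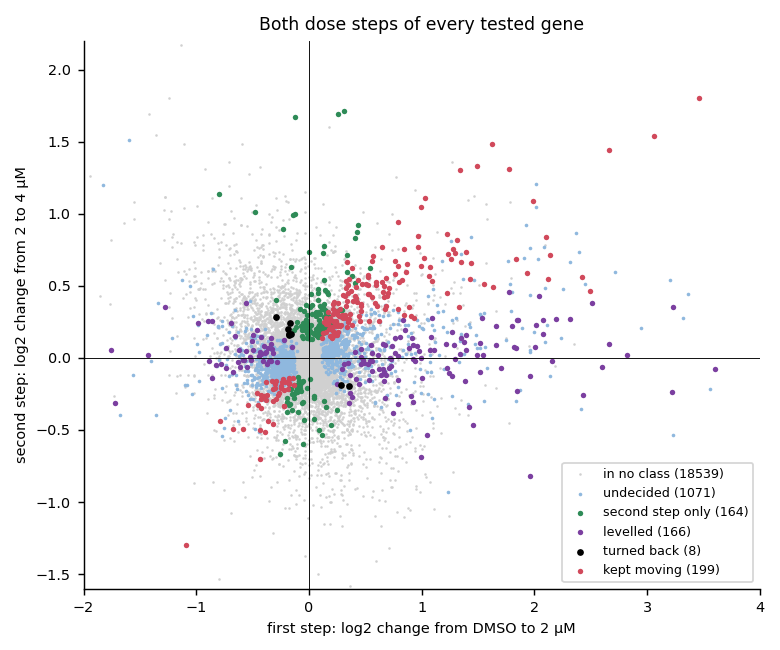
Each point is 1 of 20147 tested genes, placed by its log2 change from DMSO to 2 µM (horizontal) and from 2 to 4 µM (vertical) and coloured by dose class; 14 genes lie outside the axes. The 155 genes that kept rising spread over the upper right, and the levelled genes lie along the horizontal line at 0. Both axes use the 2 µM libraries.

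Genes that kept rising were led by the interferon-stimulated genes. Of 78 tested members of the list 53 rose from 2 to 4 µM and none fell, against 1.39% of all genes, with a median log2 change of 0.41 against 0.00. The first step also called 53 higher and none lower, with a median of 0.46. In 49 genes both steps passed, in 4 only the second, and none levelled. These 49 made up 49 of the 155 genes that kept rising. The count of 53 ranged from 47 to 54 when each library was left out. In bulk RNA a change in the number of responding cells and a change in RNA per cell cannot be told apart.

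SIGLEC1, a sialic acid receptor of macrophages (chromosome 20, 3667617 to 3687775, minus strand, hg19), stood at 5.55, 6.28 and 7.82 CPM in DMSO, at 25.6, 26.9 and 26.1 CPM at 2 µM and at 54.6, 54.6 and 57.7 CPM at 4 µM. Every 4 µM library was above every 2 µM library, and these above every DMSO library, and the second step was 1.09 ± 0.06 (edgeR adjusted p = 1.49e-11). Its second step was smaller than its first, with a log2 difference of -0.91 ± 0.12 (edgeR adjusted p = 6.57e-05). IFI27, a mitochondrial protein induced by interferon, stood at 0.519, 0.571 and 0.486 CPM in DMSO, at 3.28, 3.38 and 3.26 CPM at 2 µM and at 8.67, 8.95 and 9.34 CPM at 4 µM. The 3 groups did not overlap, and the second step was 1.44 ± 0.08 (edgeR adjusted p = 6.43e-12), again smaller than the first (difference -1.22 ± 0.21, edgeR adjusted p = 0.000703). OAS1 (chromosome 12, 113344582 to 113369990, plus strand, hg19), which makes the second messenger that activates RNase L on double-stranded RNA, stood at 15.7, 16 and 17.6 CPM in DMSO, at 40.7, 41.6 and 39.1 CPM at 2 µM and at 64.6, 67.3 and 68.8 CPM at 4 µM. It rose by 0.73 ± 0.05 (edgeR adjusted p = 1.46e-10), and its second step was smaller than its first (difference -0.57 ± 0.09, edgeR adjusted p = 0.000332). OAS2, of the same family, was less abundant and stood at 0.316, 0.507 and 0.529 CPM in DMSO, at 1.26, 1.28 and 1.57 CPM at 2 µM and at 3.89, 4.06 and 3.67 CPM at 4 µM. Its second step was 1.48 ± 0.13 (edgeR adjusted p = 9.56e-09), and the steps did not differ by the test (difference -0.14 ± 0.30, edgeR adjusted p = 1).

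The ubiquitin-like modifier ISG15, whose promoter is shown above, stood at 38.2, 41.1 and 40.9 CPM in DMSO, at 80.7, 78.7 and 83.7 CPM at 2 µM and at 129.7, 129.6 and 134 CPM at 4 µM. All 3 libraries at 4 µM were higher, by 0.70 ± 0.06 (edgeR adjusted p = 1.71e-08). IFI6, an inhibitor of apoptosis and virus replication, stood at 106, 93.5 and 92.3 CPM in DMSO, at 289, 259 and 246 CPM at 2 µM and at 447, 410.3 and 393 CPM at 4 µM, a second step of 0.66 ± 0.07 (edgeR adjusted p = 1.67e-07). OAS3 stood at 85.8, 96.9 and 97.4 CPM in DMSO, at 183, 185 and 191 CPM at 2 µM and at 278, 289 and 303 CPM at 4 µM, and rose by 0.64 ± 0.04 (edgeR adjusted p = 2.56e-10). In all 3 genes the dose groups did not overlap. BST2, which tethers budding virus to the cell surface, changed less and stood at 222, 237 and 242 CPM in DMSO, at 287, 303 and 299 CPM at 2 µM and at 349.5, 346 and 363 CPM at 4 µM, a change of 0.25 ± 0.04 (edgeR adjusted p = 0.000122). PARP9, an ADP-ribosyltransferase that pairs with the ubiquitin ligase DTX3L, stood at 33.4, 33 and 33.5 CPM in DMSO, at 60.5, 59.8 and 61.1 CPM at 2 µM and at 94.3, 90.7 and 89.7 CPM at 4 µM, with 0.60 ± 0.04 (edgeR adjusted p = 2.37e-11). CMPK2, a mitochondrial nucleotide kinase, stood at 15.3, 13.8 and 14.5 CPM in DMSO, at 22.1, 21.9 and 20.6 CPM at 2 µM and at 35.6, 34.4 and 35.3 CPM at 4 µM, with 0.70 ± 0.05 (edgeR adjusted p = 9.47e-11). Neither gene's libraries overlapped between the doses. IFI44 rose by 0.94 ± 0.08 (edgeR adjusted p = 1.83e-08) and IFIT5 by 0.82 ± 0.10 (edgeR adjusted p = 2.42e-06). IFIT1 rose by 0.77 ± 0.07 (edgeR adjusted p = 2.37e-08). The span of IFIT1 overlaps that of LIPA, that of PARP9 overlaps DTX3L and that of CMPK2 overlaps RSAD2. Reads may be shared within these pairs, because the libraries do not mark strand.

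STAT2 and IRF9, which carry the interferon signal, rose by less. STAT2 stood at 46.1, 46.7 and 50.1 CPM in DMSO, at 53, 57.3 and 55 CPM at 2 µM and at 69.8, 71 and 73.8 CPM at 4 µM, 0.38 ± 0.05 (edgeR adjusted p = 3.65e-05). IRF9 stood at 10.2, 11.1 and 10.6 CPM in DMSO, at 14.7, 14 and 14.6 CPM at 2 µM and at 18.2, 17.1 and 17.6 CPM at 4 µM, 0.29 ± 0.05 (edgeR adjusted p = 0.000749). For both the 4 µM libraries lay above the 2 µM libraries. The RNA helicases that sense viral RNA rose too, DDX58 (RIG-I) by 0.67 ± 0.06 (edgeR adjusted p = 2.12e-08) and IFIH1 (MDA5) by 0.43 ± 0.03 (edgeR adjusted p = 2.04e-09), with second steps that did not differ from the first by the test (adjusted p = 1 for both, edgeR). Of the 16 tested genes of the list of interferons, receptors and interferon signalling none was higher and 1 was lower, IRF8, a factor of monocyte development, at -0.19 ± 0.04 (edgeR adjusted p = 0.0138). IFNB1 held 10, 20 and 24 counts summed over the DMSO, 2 µM and 4 µM libraries. The list of nucleic acid sensors and adaptors does not hold DDX58 or IFIH1. Of its 17 tested members 3 were higher, against 1.39% of all genes. These were IFI16 at 0.38 ± 0.05 (edgeR adjusted p = 1.44e-05), SAMHD1 at 0.36 ± 0.06 (edgeR adjusted p = 0.000537) and AIM2 at 0.49 ± 0.11 (edgeR adjusted p = 0.0115). The AIM2 call ended without 2 µM replicate 1 or 3 or 4 µM replicate 1, where its adjusted p reached 0.102 (edgeR).

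Not every interferon-stimulated gene passed at the second step, although the step was positive in 77 of the 78. At 4 µM against DMSO 67 were called higher, where 19.9% of all genes passed in either direction. In 25 of the 78 the second step did not pass. The 3 genes described next had small second steps, and others that did not pass rose more, such as ISG20 (0.27) and LGALS3BP (0.58). MX1, a GTPase against influenza virus, stood at 1.74, 1.78 and 2.24 CPM in DMSO, at 2.47, 2.24 and 2.27 CPM at 2 µM and at 2.43, 2.39 and 2.18 CPM at 4 µM, and its 2 dose groups overlapped, with a second step of 0.00 ± 0.13 (edgeR adjusted p = 0.998). The 95% interval of that step was -0.27 to 0.27. MX2, a related GTPase at a far higher level, stood at 126, 123 and 129.9 CPM in DMSO, at 135, 139 and 139 CPM at 2 µM and at 139, 143 and 151 CPM at 4 µM, with an interval of -0.01 to 0.15. IFITM3, which blocks virus entry, stood at 0.699, 1.01 and 0.93 CPM in DMSO, at 0.782, 0.989 and 0.948 CPM at 2 µM and at 0.653, 1.03 and 1.06 CPM at 4 µM, also overlapping, with an interval of -0.35 to 0.39. These 3 genes also did not pass at the first step.

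**Figure D2:**
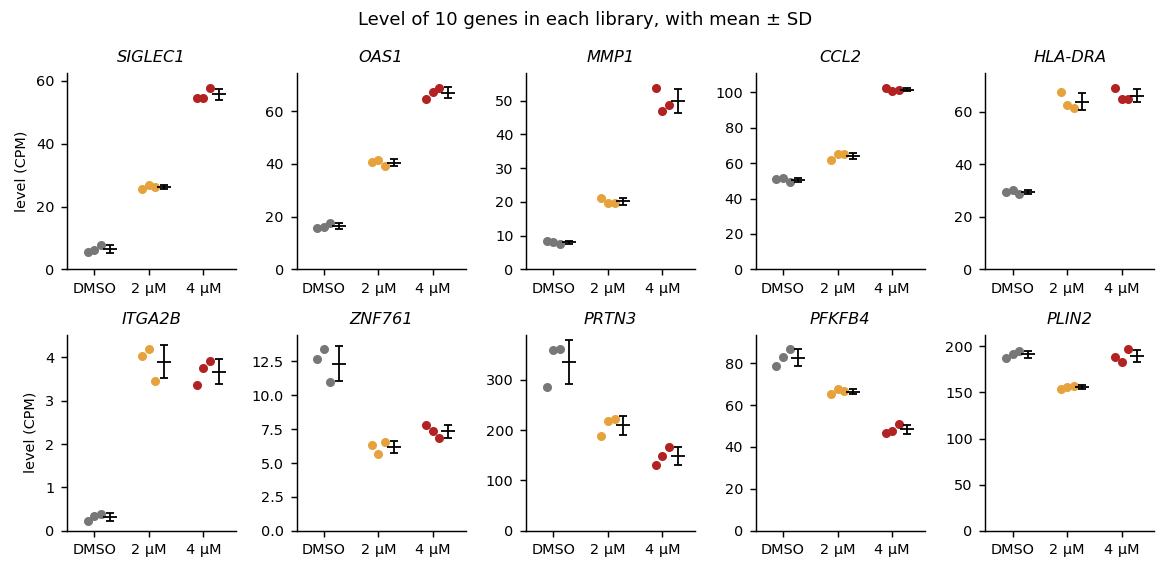
Points give the level (CPM) of 10 genes in each of the 3 DMSO, 3 2 µM and 3 4 µM libraries, with the mean ± SD as a bar beside them. SIGLEC1, OAS1, MMP1 and CCL2 rise at both steps, HLA-DRA and ITGA2B rise to 2 µM with overlapping dose groups, ZNF761 falls to 2 µM with its 4 µM libraries slightly above, PRTN3 and PFKFB4 fall at both steps, and PLIN2 falls and returns.

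Most MHC class II genes rose at the first step, and 6 of them then levelled. Of 12 tested members 9 were higher at 2 µM than in DMSO, against 3.83% of all genes, with a median of 0.69. Between 2 and 4 µM 2 were higher, with a median of 0.11, and these 2, IFI30 and CTSS, encode lysosomal enzymes of antigen processing rather than class II chains. The second step was smaller than the first by its own test in 6 members, against 0.695% of all genes. The 6 were HLA-DRA, HLA-DRB1, HLA-DRB5, HLA-DPA1, HLA-DPB1 and HLA-DMA.

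HLA-DRA, the alpha chain of the DR heterodimer (chromosome 6, 32407619 to 32412823, plus strand, hg19), stood at 29.5, 30.3 and 28.9 CPM in DMSO, at 67.5, 62.5 and 61.4 CPM at 2 µM and at 69.1, 64.7 and 64.8 CPM at 4 µM. The 2 µM and 4 µM libraries overlapped and all were above DMSO. The second step was 0.05 ± 0.06 (edgeR adjusted p = 0.835), with a 95% interval of -0.07 to 0.18, and differed from the first by -1.06 ± 0.10 (edgeR adjusted p = 4.44e-07). HLA-DRB1 stood at 38.7, 43.4 and 47.4 CPM in DMSO, at 56.2, 63.4 and 58.6 CPM at 2 µM and at 59.6, 61 and 65.2 CPM at 4 µM, with an interval of -0.05 to 0.17 for the second step and a difference between the steps of -0.40 ± 0.10 (edgeR adjusted p = 0.0341). HLA-DMA, which loads peptide onto class II molecules, stood at 5.68, 6.34 and 6.43 CPM in DMSO, at 8.88, 11.2 and 10.7 CPM at 2 µM and at 10.3, 10.5 and 11.7 CPM at 4 µM, an interval of -0.07 to 0.23 and a difference of -0.66 ± 0.13 (edgeR adjusted p = 0.00781). In both genes the doses overlapped. HLA-DPB1 was much lower and stood at 0.271, 0.539 and 0.381 CPM in DMSO, at 1.62, 1.3 and 1.26 CPM at 2 µM and at 1.44, 1.58 and 1.92 CPM at 4 µM. Its interval, -0.02 to 0.54, is wide at this depth, and the difference between the steps was -1.59 ± 0.29 (edgeR adjusted p = 0.00279). Reads of the near-identical DR beta paralogs may be shared, so HLA-DRB1 and HLA-DRB5 are uncertain one by one. CIITA stood at 24.2, 26 and 28.6 CPM in DMSO, at 27.3, 27.4 and 29.7 CPM at 2 µM and at 25, 26.1 and 27.2 CPM at 4 µM, with all 4 µM libraries below those at 2 µM, and passed at neither step. IFI30, by contrast, stood at 68.5, 77 and 79.9 CPM in DMSO, at 75.1, 82.7 and 80.7 CPM at 2 µM and at 98.2, 104 and 113 CPM at 4 µM, a second-step change of 0.40 ± 0.06 (edgeR adjusted p = 5.51e-05).

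Some class I genes rose slightly, most of them at both steps. Of 21 tested members of the class I pathway 6 were higher at 4 than at 2 µM, against 1.39% of all genes, with a median of 0.11, and 5 of them had also passed at the first step. The peptide transporter subunit TAP1 stood at 64.1, 65.8 and 68.7 CPM in DMSO, at 79.3, 80.5 and 76.4 CPM at 2 µM and at 91.8, 90.6 and 94.9 CPM at 4 µM, 0.23 ± 0.04 (edgeR adjusted p = 0.000161). HLA-B stood at 581, 632 and 653 CPM in DMSO, at 738, 751 and 735 CPM at 2 µM and at 853, 843 and 898 CPM at 4 µM, 0.22 ± 0.04 (edgeR adjusted p = 0.000764). The doses did not overlap in either gene, although HLA paralogs may share reads. The proteasome genes PSME2 (0.14) and PSMB8 (0.14) were near the threshold and lost their calls without each of 2 µM replicates 1, 2 and 3, where the adjusted p reached 0.172 for PSMB8 (edgeR). The count of 6 fell to 2 without 2 µM replicate 2 and to 3 without 2 µM replicate 1 or 3, 4 µM replicate 1 or 2, or DMSO replicate 2.

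**Figure D3:**
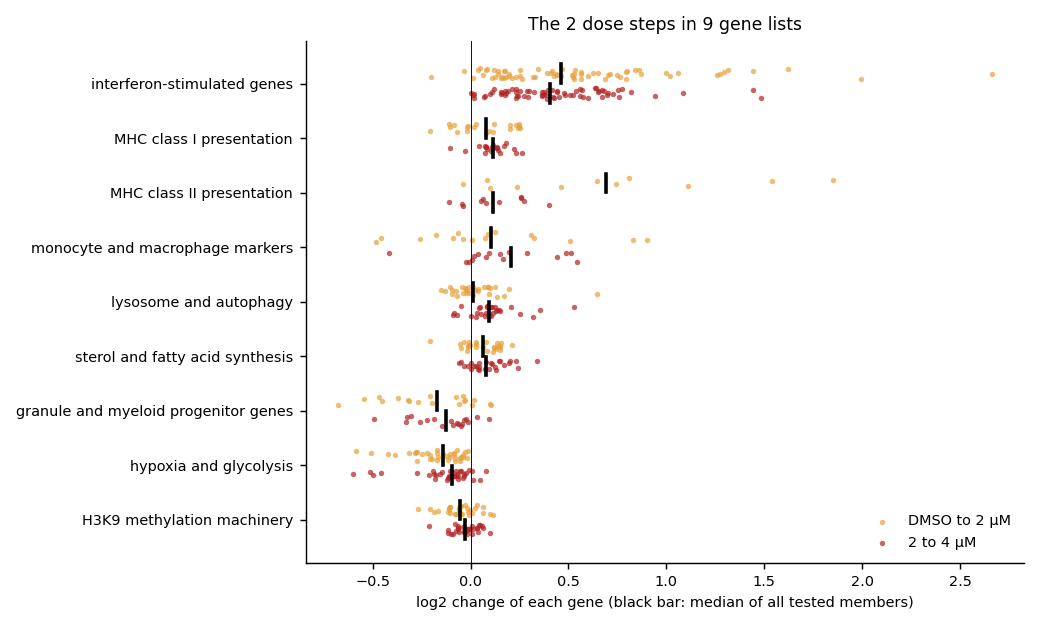
Each point is the log2 change of 1 list member at the first step (orange, DMSO to 2 µM) or the second (red, 2 to 4 µM), for members with a mean of at least 1 CPM over the dose libraries, and black bars are medians over all tested members. The class II median drops from 0.69 to 0.11 between the steps, while the interferon medians are 0.46 and 0.41.

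Outside the class II genes, the levelled genes with the largest first steps were near or under 1 CPM in DMSO. ITGA2B, an integrin chain of platelets (chromosome 17, 42449548 to 42466873, minus strand, hg19), stood at 0.226, 0.349 and 0.381 CPM in DMSO, at 4.04, 4.19 and 3.46 CPM at 2 µM and at 3.35, 3.76 and 3.91 CPM at 4 µM, and all 6 dose libraries were above all DMSO libraries and overlapped each other. Its steps differed by -3.68 ± 0.28 (edgeR adjusted p = 7.72e-10), and the 95% interval of the second was -0.30 to 0.15. Other genes of the erythroid and megakaryocyte list did not follow: of 4 tested genes ITGA2B alone passed at the first step, and none passed at the second. CHRNB4, a nicotinic receptor subunit, stood at 0.474, 0.285 and 0.423 CPM in DMSO, at 3.13, 2.76 and 2.78 CPM at 2 µM and at 2.32, 3.17 and 3.29 CPM at 4 µM, with steps that differed by -2.80 ± 0.28 (edgeR adjusted p = 4.15e-07). COL22A1, a collagen, stood at 1.04, 1.14 and 0.846 CPM in DMSO, at 4.44, 4.79 and 4.41 CPM at 2 µM and at 5.9, 5.41 and 5.17 CPM at 4 µM, with a difference of -1.92 ± 0.22 (edgeR adjusted p = 3.57e-06). The 4 µM libraries of COL22A1 were all above those at 2 µM, and the second step did not pass (0.27 ± 0.10, edgeR adjusted p = 0.262). CSRP3, SETBP1 and KLK6 also levelled, with second steps of 0.16, 0.26 and 0.07.

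Genes that fell at the first step and then levelled held many zinc-finger genes. Of 380 tested genes with ZNF symbols, a list added after their values were seen, 94 fell and 4 rose from DMSO to 2 µM, where 3.34% of all genes fell. From 2 to 4 µM 2 fell and none rose, which is near the 0.452% of all genes that fell. The median log2 change was -0.10 at the first step and -0.02 at the second. In 24 the steps met the levelled class, 23 after a fall, against 0.253% of all genes, and 1 after a rise, against 0.571%. In 72, counted in both directions, it was undecided, against 2.84% (lower) and 2.48% (higher) of all genes. ZNF761 (chromosome 19, 53935227 to 53961515, plus strand, hg19) stood at 12.7, 13.4 and 11 CPM in DMSO, at 6.31, 5.68 and 6.54 CPM at 2 µM and at 7.81, 7.34 and 6.87 CPM at 4 µM, and its 4 µM libraries were all above its 2 µM libraries. Its second step was 0.24 ± 0.09 (edgeR adjusted p = 0.219), and the steps differed by 1.23 ± 0.15 (edgeR adjusted p = 1.24e-05). ZNF559 stood at 9.2, 8.94 and 8.42 CPM in DMSO, at 4.82, 5.16 and 4.41 CPM at 2 µM and at 4.95, 4.47 and 4.71 CPM at 4 µM, with overlapping doses and a 95% interval of -0.21 to 0.17 for the second step. The spans of both overlap other genes, TPM3P9 and ZNF177, with which reads may be shared. ZNF136, ZNF776 and ZNF850 showed second steps of -0.05, -0.04 and -0.07. CD38, an enzyme that degrades NAD, also levelled: it stood at 8.48, 8.06 and 8.61 CPM in DMSO, at 5.05, 4.37 and 4.45 CPM at 2 µM and at 4.28, 4.24 and 4.09 CPM at 4 µM, and its second step was -0.14 ± 0.08 (edgeR adjusted p = 0.594).

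Genes of 4 granule proteins, made in myeloid progenitors, kept falling. Of 22 tested members of this list 4 were lower at 4 than at 2 µM and none was higher, against 0.452% lower over all genes, with a median of -0.12. All 4, CTSG, PRTN3, ELANE and AZU1, encode proteases or protease-like proteins of the azurophil granule, and all had also fallen at the first step. PRTN3, proteinase 3, stood at 285, 359 and 361 CPM in DMSO, at 188, 218 and 222 CPM at 2 µM and at 131, 149 and 167 CPM at 4 µM, a second step of -0.49 ± 0.08 (edgeR adjusted p = 0.000772). CTSG, cathepsin G, stood at 621, 669.7 and 692 CPM in DMSO, at 497, 523 and 511 CPM at 2 µM and at 419, 423 and 441 CPM at 4 µM, with -0.26 ± 0.04 (edgeR adjusted p = 0.000388). ELANE, neutrophil elastase, stood at 427, 479 and 496 CPM in DMSO, at 328, 354 and 343 CPM at 2 µM and at 260.5, 271 and 285 CPM at 4 µM, with -0.33 ± 0.06 (edgeR adjusted p = 0.00266). In these 3 genes every 4 µM library was below every 2 µM library. AZU1 stood at 137, 164 and 187 CPM in DMSO, at 98.8, 114 and 122 CPM at 2 µM and at 84.9, 88.4 and 93.2 CPM at 4 µM, with -0.33 ± 0.08 (edgeR adjusted p = 0.0242), but its call ended without 2 µM replicate 2 or 3 or 4 µM replicate 1 or 2, where the adjusted p reached 0.206 (edgeR). AZU1, PRTN3 and ELANE are neighbours on chromosome 19 (825097 to 856242, hg19).

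Of 24 tested monocyte and macrophage markers 6 rose from 2 to 4 µM and none fell, against 1.39% higher over all genes, with a median of 0.21. GPNMB, a glycoprotein of macrophages, stood at 273, 263 and 265 CPM in DMSO, at 387, 378 and 373 CPM at 2 µM and at 539.5, 529.6 and 554 CPM at 4 µM, a rise of 0.51 ± 0.03 (edgeR adjusted p = 7.07e-11). CD36, a scavenger receptor, stood at 59.9, 52.1 and 51.2 CPM in DMSO, at 102, 95.5 and 93.1 CPM at 2 µM and at 146, 141 and 135 CPM at 4 µM, with 0.54 ± 0.06 (edgeR adjusted p = 3.38e-07). The doses did not overlap in either gene, and for GPNMB the steps differed by 0.01 ± 0.06 (edgeR adjusted p = 1). CD68 rose by 0.44 ± 0.09 (edgeR adjusted p = 0.00321) and MARCO, another scavenger receptor, by 0.29 ± 0.06 (edgeR adjusted p = 0.00651), less than at its first step (difference -0.61 ± 0.11, edgeR adjusted p = 0.00169). CD86 passed at the second step alone and stood under 1 CPM. Lysozyme (LYZ) and the growth factor receptor CSF1R instead fell at the first step and met the levelled class. LYZ stood at 332, 309 and 293 CPM in DMSO, at 292, 268 and 267 CPM at 2 µM and at 319, 303 and 305 CPM at 4 µM. CSF1R stood at 6.22, 6.31 and 5.94 CPM in DMSO, at 4.14, 4.69 and 4.58 CPM at 2 µM and at 4.64, 5.05 and 5.65 CPM at 4 µM. At 4 µM LYZ overlapped DMSO and CSF1R stayed below it. Summed over the 11 myelomonocytic markers the level was 1585 to 1665 CPM at 2 µM and 1477 to 1602 CPM at 4 µM, and part of that sum is ELANE and PRTN3.

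Some hypoxia-induced and glycolytic genes fell with dose. Of 37 tested members 5 were lower and none higher at 4 than at 2 µM, against 0.452% lower over all genes, with a median of -0.09. The first step had called 14 lower and none higher, against 3.34% lower, with a median of -0.14, and 4 µM against DMSO called 25 lower, against 9.73% of all genes. PFKFB4 (chromosome 3, 48555117 to 48599448, minus strand, hg19), which sets the level of a glycolytic activator, stood at 78.6, 82.8 and 86.8 CPM in DMSO, at 65.4, 67.5 and 66.5 CPM at 2 µM and at 46.6, 47.8 and 50.8 CPM at 4 µM, a second step of -0.46 ± 0.04 (edgeR adjusted p = 7.91e-08). ADM (adrenomedullin, a peptide hormone) stood at 7.1, 6.56 and 6.85 CPM in DMSO, at 4.37, 4.27 and 4.99 CPM at 2 µM and at 2.97, 3.44 and 3.29 CPM at 4 µM, with -0.50 ± 0.08 (edgeR adjusted p = 0.000406). SPAG4 stood at 12.7, 13.3 and 15.1 CPM in DMSO, at 9.49, 11.8 and 10.2 CPM at 2 µM and at 8.1, 6.84 and 7.09 CPM at 4 µM, with -0.51 ± 0.09 (edgeR adjusted p = 0.000563). The doses did not overlap in any of these, and all 3 had also fallen at the first step. PDK1, which blocks pyruvate dehydrogenase, fell by a log2 change of -0.21 ± 0.05 (edgeR adjusted p = 0.0183). STC1, a secreted regulator of calcium and phosphate, passed at the second step alone: it stood at 5.84, 4.82 and 4.63 CPM in DMSO, at 4.77, 5.08 and 4.97 CPM at 2 µM and at 3.33, 3.62 and 2.87 CPM at 4 µM, with -0.60 ± 0.11 (edgeR adjusted p = 0.000935). NDRG1 and VEGFA, which both fell at the first step, had second steps of -0.19 ± 0.06 (edgeR adjusted p = 0.131) and -0.02 ± 0.03 (edgeR adjusted p = 0.896) that did not pass.

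Other genes that kept falling had no list in common. FAM46C, a poly(A) polymerase, stood at 15.8, 14.2 and 14.4 CPM in DMSO, at 10.7, 10.9 and 11.2 CPM at 2 µM and at 7.59, 8.67 and 7.05 CPM at 4 µM, with -0.50 ± 0.09 (edgeR adjusted p = 0.000697). SYTL1 stood at 11, 11.8 and 13.6 CPM in DMSO, at 6.61, 7.11 and 7.38 CPM at 2 µM and at 5.72, 5.05 and 4.89 CPM at 4 µM, with -0.44 ± 0.09 (edgeR adjusted p = 0.00883). HAL, a histidine-degrading enzyme, stood at 5.91, 6.53 and 6.05 CPM in DMSO, at 4.62, 5.16 and 4.58 CPM at 2 µM and at 3.44, 3.53 and 3.59 CPM at 4 µM, with -0.44 ± 0.09 (edgeR adjusted p = 0.0062). The doses did not overlap in any of the 3. SYTL1 lost its call without 2 µM replicate 3 or 4 µM replicate 2 or 3, with an adjusted p of up to 0.0767, and HAL without 2 µM replicate 2 (0.0606, edgeR). RHBDL1, IGIP, TSSK6, ANKRD33B, PLA2G6 and NT5M passed, lower, at the second step alone, with log2 changes between -0.37 and -0.53, and each lost its call without at least 1 of the dose libraries.

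A few matrix and tryptophan enzymes gave some of the largest rises. Of 24 tested members 4 were higher at 4 µM and none lower, against 1.39% higher over all genes, with a median of 0.09. This list, like the others, was written with earlier results of these data known, so its count is descriptive. MMP1, a collagenase (chromosome 11, 102660651 to 102668891, minus strand, hg19), stood at 8.52, 7.99 and 7.44 CPM in DMSO, at 21.3, 19.6 and 19.6 CPM at 2 µM and at 53.8, 47 and 48.6 CPM at 4 µM. The 4 µM libraries were all more than 2-fold above the 2 µM libraries, with a second step of 1.30 ± 0.06 (edgeR adjusted p = 2.29e-13). The steps did not differ by the test (difference -0.03 ± 0.12, edgeR adjusted p = 1). WTAPP1, which rose by 1.33 ± 0.11 (edgeR adjusted p = 4.05e-09), has a span that overlaps MMP1, and their reads may be shared. TDO2, which opens the tryptophan ring, stood at 0.383, 0.476 and 0.338 CPM in DMSO, at 1.69, 1.17 and 1.2 CPM at 2 µM and at 3.58, 3.44 and 3.03 CPM at 4 µM, with 1.31 ± 0.15 (edgeR adjusted p = 6.55e-07). KYNU, further down the same pathway, rose by 0.49 ± 0.12 (edgeR adjusted p = 0.0238), a call lost without any of 2 µM replicates 1, 2 and 3 or 4 µM replicates 1 and 2 (adjusted p up to 0.0984, edgeR). IL22RA2, a decoy receptor for the cytokine interleukin 22, stood at 5.37, 5.58 and 4.42 CPM in DMSO, at 18.2, 17.3 and 18.8 CPM at 2 µM and at 31.2, 28.9 and 27.6 CPM at 4 µM, with 0.69 ± 0.07 (edgeR adjusted p = 1.95e-07). Its second step was smaller than its first (difference -1.15 ± 0.13, edgeR adjusted p = 6.93e-06).

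A few chemokines rose. Of 27 tested inflammatory and NF-kB genes 4 were higher at 4 µM, CCL2, CCL3, CCL4 and CCL8, and none lower, against 1.39% higher over all genes, with a median of 0.03. CCL2, which attracts monocytes (chromosome 17, 32582304 to 32584222, plus strand, hg19), stood at 51.1, 51.4 and 49.3 CPM in DMSO, at 61.8, 65 and 65.2 CPM at 2 µM and at 102, 101 and 101 CPM at 4 µM, a second step of 0.66 ± 0.05 (edgeR adjusted p = 2.07e-10). Of the 155 genes that kept rising it alone had a second step larger than its first by the test (difference 0.33 ± 0.08, edgeR adjusted p = 0.049), while 23 had a smaller one. CCL3 stood at 9.36, 9.96 and 11.2 CPM in DMSO, at 10.2, 11.1 and 10.9 CPM at 2 µM and at 14.6, 14.7 and 14.7 CPM at 4 µM, and passed at the second step alone (0.45 ± 0.06, edgeR adjusted p = 2.62e-05). CCL4 stood at 1.62, 1.68 and 1.33 CPM in DMSO, at 2.47, 2.24 and 2.54 CPM at 2 µM and at 3.62, 3.23 and 3.41 CPM at 4 µM, with 0.50 ± 0.09 (edgeR adjusted p = 0.00245). The doses did not overlap in any of the 3. CCL8 was under 0.5 CPM in every library.

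Among surface and transport genes, SLAMF7, a receptor of immune cells, stood at 0.654, 0.539 and 0.761 CPM in DMSO, at 1.26, 1.3 and 1.48 CPM at 2 µM and at 3.24, 2.68 and 2.89 CPM at 4 µM, with 1.11 ± 0.12 (edgeR adjusted p = 6.62e-07). CD180, a relative of the Toll-like receptors, stood at 0.293, 0.539 and 0.486 CPM in DMSO, at 2.32, 2.37 and 2.29 CPM at 2 µM and at 3.26, 3.49 and 3.55 CPM at 4 µM, with 0.56 ± 0.10 (edgeR adjusted p = 0.000772), and its second step was smaller than its first (difference -1.86 ± 0.23, edgeR adjusted p = 1.15e-05). PKD1L1 stood at 0.992, 1.21 and 1.29 CPM in DMSO, at 5.02, 4.79 and 5.2 CPM at 2 µM and at 8.42, 9.18 and 9.3 CPM at 4 µM, with 0.84 ± 0.08 (edgeR adjusted p = 1.31e-07) and a difference between the steps of -1.27 ± 0.18 (edgeR adjusted p = 8.92e-05). The dose groups were separate in all 3 genes, and PKD1L1 overlaps HUS1. CYP3A7, a cytochrome P450 of the fetal liver, rose by 0.86 ± 0.11 (edgeR adjusted p = 1.19e-05).

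A minority of lysosomal and sterol genes passed, all of them higher at 4 µM. Of 31 tested lysosome and autophagy genes 5 were higher and none lower, against 1.39% higher over all genes, with a median of 0.10. NPC1, which exports cholesterol from lysosomes, stood at 269, 275 and 293 CPM in DMSO, at 429, 439 and 441 CPM at 2 µM and at 592, 634 and 661 CPM at 4 µM, a second step of 0.53 ± 0.04 (edgeR adjusted p = 1.67e-09). Its steps did not differ by the test (difference -0.12 ± 0.07, edgeR adjusted p = 0.878). ASAH1 (acid ceramidase) rose by 0.32 ± 0.05 (edgeR adjusted p = 6.01e-05) and NEU1 (a sialidase) by 0.25 ± 0.04 (edgeR adjusted p = 0.000232). CTSD (cathepsin D) stood at 953, 1169.9 and 1229 CPM in DMSO, at 1024, 1162 and 1194 CPM at 2 µM and at 1305, 1427 and 1586 CPM at 4 µM, with 0.35 ± 0.07 (edgeR adjusted p = 0.00745). This was a second-step-only gene, whose call ended without 2 µM replicate 1 or 4 µM replicate 3 (adjusted p up to 0.0814, edgeR). Of 27 sterol and fatty acid genes 3 were higher, against the same 1.39%, among them FADS1 (0.17) and INSIG1 (0.20), with a median of 0.08 over the list. FADS1 lost its call without 2 µM replicate 1 or 4 µM replicate 3, and INSIG1 without 2 µM replicates 2 or 3 or 4 µM replicates 1 or 2.

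Some genes passed the test between 2 and 4 µM but not from DMSO to 2 µM, which does not show that they had not moved by 2 µM. AQP9, a channel for glycerol and water, stood at 2.82, 2.79 and 2.11 CPM in DMSO, at 3.33, 3.25 and 3.73 CPM at 2 µM and at 7.14, 6.38 and 6.15 CPM at 4 µM. Its second step was 0.92 ± 0.12 (edgeR adjusted p = 1.24e-05). The gene lies within the span of ALDH1A2, with which reads may be shared. BATF2, a transcription factor induced by interferon, stood at 1.44, 2.12 and 2.18 CPM in DMSO, at 2.2, 2.34 and 2.62 CPM at 2 µM and at 3.51, 3.44 and 3.91 CPM at 4 µM, with 0.60 ± 0.12 (edgeR adjusted p = 0.00315). TNFRSF14, a receptor of the TNF family, stood at 62.3, 72.8 and 81.6 CPM in DMSO, at 73.5, 83.2 and 85.9 CPM at 2 µM and at 114, 109.9 and 109 CPM at 4 µM, with 0.45 ± 0.07 (edgeR adjusted p = 8.79e-05). In all 3 genes the 4 µM libraries lay above the 2 µM libraries. SPP1 (osteopontin) rose by 0.44 ± 0.09 (edgeR adjusted p = 0.0039) and LILRA6 by 0.54 ± 0.13 (edgeR adjusted p = 0.0186), the latter not passing without 2 µM replicate 1 or 4 µM replicate 1 or 2. On the falling side, HSPA6, a heat shock protein, stood at 10.5, 11.1 and 10.8 CPM in DMSO, at 9.46, 9.69 and 9.98 CPM at 2 µM and at 7.74, 7.64 and 7.33 CPM at 4 µM, with -0.36 ± 0.06 (edgeR adjusted p = 0.00117). The immediate early factor EGR1 stood at 48.3, 51.6 and 55.2 CPM in DMSO, at 43.9, 46.7 and 46.8 CPM at 2 µM and at 33, 37.4 and 39.2 CPM at 4 µM, with -0.33 ± 0.08 (edgeR adjusted p = 0.0236), a call that ended without 2 µM replicate 2 or 3 or 4 µM replicate 1 or 2 (adjusted p up to 0.171, edgeR). NICN1 and PTP4A3 fell by log2 changes of -0.30 and -0.32, and neither passed without 2 µM replicate 3. Passing at the second step and not at the first does not show that the steps differ: of the 119 higher genes of this class 2 had a larger second step by the test, and of the 45 lower genes none.

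The 8 genes that turned back moved 1 way to 2 µM and the other way to 4 µM. PLIN2, a coat protein of lipid droplets (chromosome 9, 19108373 to 19149288, minus strand, hg19), stood at 187, 192 and 195 CPM in DMSO, at 154, 156 and 157 CPM at 2 µM and at 189, 183 and 197 CPM at 4 µM. All 4 µM libraries were above all 2 µM libraries and overlapped DMSO, with 0.28 ± 0.04 (edgeR adjusted p = 0.000121) after a first step of -0.30. PTAFR, the receptor for platelet activating factor, stood at 68.3, 73.6 and 73.8 CPM in DMSO, at 63.9, 65.1 and 62.6 CPM at 2 µM and at 73.9, 74 and 78.4 CPM at 4 µM, with 0.24 ± 0.04 (edgeR adjusted p = 0.000617). TFRC, the transferrin receptor, stood at 418, 389 and 373 CPM in DMSO, at 359, 344 and 349.6 CPM at 2 µM and at 396, 398 and 385 CPM at 4 µM, with 0.16 ± 0.04 (edgeR adjusted p = 0.0126). GJB2, SERTAD3 and CHI3L1 likewise fell and rose, by 0.20, 0.16 and 0.17 at the second step. The paralogs TRIM16 and TRIM16L, whose reads may be shared, rose and then fell, by -0.19 and -0.20. PLIN2 and PTAFR kept their second-step calls under each alternative fit, while the other 6 each lost theirs without 2 µM replicate 2 and without 2 µM replicate 3, and the adjusted p reached 0.328 for SERTAD3 (edgeR). Without 2 µM replicate 2 no gene rose and then fell, and without 2 µM replicate 3 or 4 µM replicate 2 there was 1. Genes that fell and then rose numbered 1 to 3 without any 1 dose library other than 2 µM replicate 1, and 10 and 2 without DMSO replicates 1 and 2.

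The undecided genes are those for which 3 libraries a group could not tell levelling from further movement. GBP5, an interferon-induced GTPase, stood at 1.83, 1.52 and 1.88 CPM in DMSO, at 3, 2.92 and 2.99 CPM at 2 µM and at 3.51, 3.76 and 3.23 CPM at 4 µM, a second step of 0.23 ± 0.11 (edgeR adjusted p = 0.425) with a 95% interval of 0.01 to 0.46. SLCO2B1, a transporter of organic anions, stood at 1.83, 1.84 and 2.16 CPM in DMSO, at 3.13, 3.31 and 3.13 CPM at 2 µM and at 3.89, 3.67 and 4.19 CPM at 4 µM, with an interval of 0.11 to 0.49. ZNF845 stood at 5.84, 5.26 and 4.31 CPM in DMSO, at 2.98, 2.89 and 2.02 CPM at 2 µM and at 2.61, 2.39 and 2 CPM at 4 µM, with an interval of -0.46 to 0.14. The dose groups were separate in GBP5 and SLCO2B1 and overlapped in ZNF845.

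Several lists had no call or 1 call between the doses, where 1.84% of all genes passed, a share too small to set these lists apart from the rest. None of 22 tested p53 and arrest genes and none of 31 MYC and ribosome biogenesis genes passed, with medians of 0.01 and 0.02. Of 44 cell cycle genes 1 passed, CDK6, which fell by a log2 change of -0.23 ± 0.06 (edgeR adjusted p = 0.0282). Among 33 tested genes of the H3K9 methylation machinery 1 passed, the demethylase KDM4B, which fell at both steps (-0.21 ± 0.05, edgeR adjusted p = 0.0258 at the second). The transcripts of the inhibitor's own targets were measured as well. EHMT2, located at 31847536 to 31865464 on the minus strand of chromosome 6 (hg19), stood at 127, 147 and 163 CPM in DMSO, at 128, 140.2 and 139 CPM at 2 µM and at 124, 131 and 142 CPM at 4 µM. EHMT1 stood at 78.7, 87.4 and 84.2 CPM in DMSO, at 81.9, 84.5 and 82.9 CPM at 2 µM and at 74.9, 78.4 and 78.9 CPM at 4 µM. Neither passed, and the 95% intervals of their second steps were -0.17 to 0.10 and -0.19 to -0.01. SUV39H1 and SUV39H2 also did not pass (-0.08 and 0.04). SOD2, a mitochondrial superoxide dismutase, rose by 0.31 ± 0.03 (edgeR adjusted p = 1.42e-07), while HMOX1, which degrades haem, fell by a log2 change of -0.25 ± 0.06 (edgeR adjusted p = 0.0119). FOS fell at both steps (-0.29 ± 0.07, edgeR adjusted p = 0.013 at the second), and BCL2A1, a survival protein of the BCL2 family, rose at both (0.43 ± 0.08, edgeR adjusted p = 0.00133 at the second).

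Genes that moved with dose often lay side by side. Of the 280 higher genes 78 (27.9%) had an adjacent tested gene that was also higher, against 2.72% of all tested genes. Leaving out neighbours whose spans overlap, and which may share reads, 46 (16.4%) did, against 2.11%. Overlap was read from whole gene spans, and shared exons were not examined. Of the 91 lower genes 7 (7.7%) had a separate lower neighbour, against 0.685%. The higher runs held OAS1, OAS2 and OAS3 on chromosome 12 (113344582 to 113449528, hg19), and IFIT2, IFIT3, IFIT1 and IFIT5 on chromosome 10 (91061712 to 91180758). The spans of OAS1, OAS2 and OAS3 overlap that of RP1-71H24.1, with which reads may be shared. A run outside the interferon list was MS4A4A, MS4A7 and MS4A14 on chromosome 11 (60048014 to 60185161), which encode membrane proteins of myeloid cells. MS4A4A stood at 14.7, 13.8 and 14.3 CPM in DMSO, at 28.4, 27.7 and 27.5 CPM at 2 µM and at 53.6, 47.5 and 49.1 CPM at 4 µM, with 0.84 ± 0.05 (edgeR adjusted p = 1.49e-11). MS4A7 stood at 38.9 ± 2.55 and 56.9 ± 4.21 CPM (SD, n = 3) at 2 and 4 µM against 14.5 CPM in DMSO, with a second step of 0.55, and MS4A14, which overlaps it, showed 0.72. MS4A7 and MS4A14 were named after their values were seen.

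The hairpin libraries gave a readout that shares no library with the dose comparison. The targeted gene, EHMT2, stood at 144 ± 8.52 CPM with the scrambled hairpin, 73.7 ± 2.79 with G9a hairpin 2 and 73.2 ± 3.69 with hairpin 3 (SD, n = 3 each). Over all tested genes 25% were higher and 24.9% lower with G9a hairpins than with the scrambled hairpin. Of the 280 genes higher at 4 than at 2 µM 90 (32.1%) were higher and 116 (41.4%) lower with the hairpins, with a median log2 change of -0.05. Of the 91 lower genes 44 (48.4%) were higher and 31 (34.1%) lower. Genes that kept rising with dose were lower with the hairpins in 71 of 155 cases (45.8%), and genes that kept falling were higher in 28 of 44 (63.6%). Other classes called at the first step also lay above the shares of all tested genes. Levelled and undecided higher genes were lower in 44.3% and 43.1%, and levelled and undecided lower genes were higher in 45.1% and 57.2%. These shares were not matched for level. The median was 34.8 CPM in the 280 higher genes and 10.3 CPM in all tested genes. Of the 78 interferon-stimulated genes 25 were higher and 34 lower with the hairpins, with a median of -0.09. CCL2 and GPNMB, which rose with each dose step, were lower with the hairpins (-1.62 and -1.01), and so was IL22RA2 (-2.22), while CD68 was higher (0.99). Of the 6 levelled class II genes 5 were lower with the hairpins, HLA-DRA by a log2 change of -0.87, and HLA-DMA was higher (0.23). The hairpin and inhibitor groups also differ in virus infection and puromycin selection, whose part in these counts was not tested. The labels give puromycin selection for the G9a hairpins and do not state it for the scrambled hairpin. Whether selection contributes to the hairpin calls was not tested either.

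**Figure D4:**
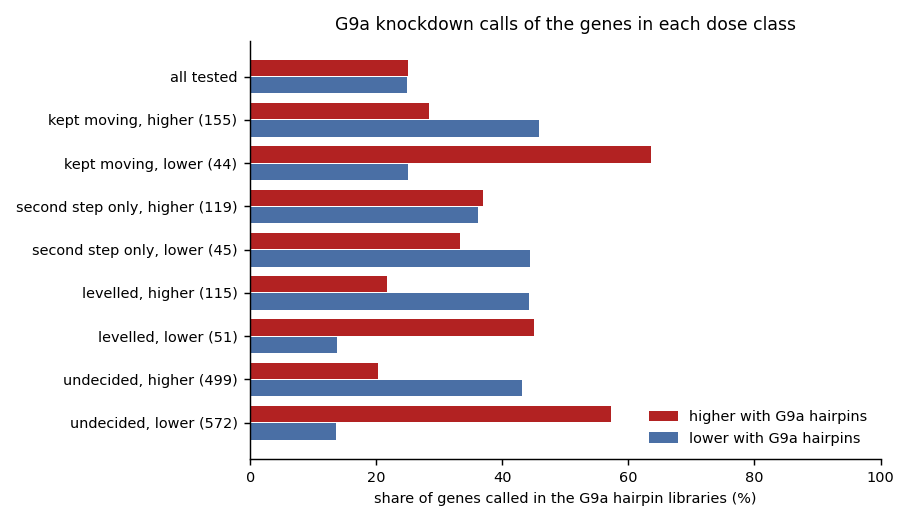
Bars give the share (%) of genes in each dose class, with the number of genes in brackets, that were called higher (red) or lower (blue) with the G9a hairpins than with the scrambled hairpin, beside the share over all tested genes. In the genes that kept rising 28.4% were higher and 45.8% lower, and in those that kept falling 63.6% and 25%. Levelled and undecided higher genes were lower in 44.3% and 43.1%, and levelled and undecided lower genes were higher in 45.1% and 57.2%.

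Few repeat families passed the test between the doses. Of 929 tested repeat names 3 passed (0.323%), 2 higher (0.215%) and 1 lower (0.108%), and the unadjusted p was under 0.05 for 44 higher and 13 lower. The median log2 change was 0.04, after -0.09 at the first step, where 7 were higher (0.753%) and 38 lower (4.09%). FAM, a monomer related to Alu elements, held 165.5, 167.6 and 167.4 counts per 1000000 gene counts at 2 µM and 201.8, 206.6 and 196.5 at 4 µM. Its second step was 0.27 ± 0.04 (edgeR adjusted p = 8.79e-05), and the groups did not overlap. LTR67B rose by 0.20 ± 0.04 (edgeR adjusted p = 0.0138), and the satellite SST1 fell by a log2 change of -0.29 ± 0.06 (edgeR adjusted p = 0.0257). All 3 had moved the same way at the first step. LTR67B did not pass without 2 µM replicate 1 or 3 or 4 µM replicate 2 or 3, nor SST1 without 2 µM replicate 2 or 3 or 4 µM replicate 1 or 3. None of the 9 young LINE-1, 36 Alu, 6 SVA or 30 HERVK, LTR5 and LTR13 names passed. All repeat counts together made up 55774 ± 418 per 1000000 gene counts at 2 µM and 56720 ± 2626 at 4 µM (SD, n = 3), a difference with an exact permutation p = 0.6 (2-sided), where 3 libraries a side cannot go below 0.1.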

How the data were processed

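RNA-seq libraries of U937 cells (RNeasy RNA, unstranded TruSeq v2 preparation, per the labels' protocols) were deposited as tables of raw counts per gene name and per repeat name. Other columns hold the summed length and number of copies per name as given in the deposited tables. The submitters' processing notes list STAR, featureCounts and hg19, with versions not given in the sources used here. No other column of per-sample values was present.

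Library sizes were the gene table sums, also for repeats. Names were filtered with filterByExpr (minimum count 10, minimum total 15) over all 24 libraries. TMM scaling and edgeR 4.0.16 (R 4.3.3) quasi-likelihood fits used 1 mean per group, with adjusted p under 0.05 over all tested names. CPM values are TMM-scaled. The fits were tested on simulated data first. Alternatives used RLE scaling, DESeq2 1.42.0 (Wald test), no filter, only the groups compared, a replicate block, and each library left out.

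Named genes were the 14 largest calls in each direction (mean of at least 2 CPM, separate groups, no clone-based symbol), in each list with 3 or more calls the 4 called members of lowest p, the 6 largest genes of each dose class, the called repeats and 4 methyltransferases. Other list members are named as list members. Some genes that this rule names are not reported here. The comparison, the members and the lists were chosen with earlier results of these data known.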

Additional observations from a re-analysis of the deposited data

How the results depend on the processing

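All 371 genes called between the doses kept their direction in every alternative. Of 103 named genes 75 were called and 47 of these in every alternative, and none reversed. The total of 371 became 375 with RLE scaling (364 shared), 410 without the low-count filter (306 shared), 409 in DESeq2 (324 shared) and 236 with only the groups compared (222 shared). At an unadjusted p under 0.05 (edgeR) 1200 genes were higher and 1028 lower. With only the groups compared 181 genes were higher and 55 lower, 94 kept rising and 14 kept falling, 40 and 9 were second-step-only, 0 and 1 turned back, 16 lower genes levelled and 339 were undecided, and 2 class I genes, 1 sterol gene and 1 repeat were higher. Without the filter 9 hypoxia genes were lower, and DESeq2 called 8 lysosome genes higher. With the replicate number as a block 470 genes were called (336 higher, 134 lower), all 371 among them, with 74 second-step-only lower genes, 5 sterol genes higher and 9 hypoxia genes lower. The numbers were not taken to pair the libraries, because the rule (every same-numbered pair over 0.1) was not met. Deviations of same-numbered 2 and 4 µM libraries correlated at 0.168, 0.0198 and 0.0627, DMSO with 2 µM at 0.228, 0.0557 and 0.116, and DMSO with 4 µM at 0.188, 0.0212 and 0.113. All were positive, against -0.185 to 0.0874 for different numbers. Replicate 2 of 2 µM correlated best with replicate 3 of 4 µM (0.0729) and of DMSO (0.0874). Replicate 2 of DMSO, however, correlated best with its own number at 2 µM (0.0557), and replicate 2 of 4 µM with its own number in DMSO (0.0212). Shared handling was therefore not settled. The causes of these shifts were not tested.

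Leaving out each library gave 182 to 335 higher and 33 to 128 lower genes. Genes that kept moving numbered 104 to 175 higher and 21 to 67 lower, levelled 81 to 119 and 21 to 60, second-step-only 58 to 150 and 12 to 61, turned back 0 to 3 and 1 to 10, and undecided 325 to 781 and 331 to 987. List counts ranged from 47 to 54 for interferon-stimulated genes, 2 to 7 for class I, 4 to 7 for monocyte markers, 4 to 7 for hypoxia, 4 to 6 for lysosome, 2 to 4 for sterol genes, 2 to 4 for sensors, 3 to 4 for granule genes and for tryptophan and matrix genes, and 4 for inflammatory genes. Repeats called numbered 1 to 2 higher and 0 to 1 lower. The difference in total repeat counts (946 per 1000000 gene counts) reversed to -82.6 without 4 µM replicate 1 and reached 2425 without another library. With 3 libraries a group, levelling and slow further movement could not be told apart for most genes called at the first step.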
